A study of Mus musculus with 13 samples.

Results

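Interferon-stimulated genes are the genes a cell switches on when it senses type I interferon. A list of 43 mouse genes of this kind was chosen by name, with earlier results of these data known. Of these, 38 had at least 1 peak of open chromatin within 50 kb of a transcription start site in the deposited table. The table held 13874 such gene loci in all. The 38 genes carried 94 peaks, 51 at promoters and 43 elsewhere (called distal here). Oas1a, Oas2, Oas3, Oasl2 and Ifi44 had no peak in the table and have no value here.

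Type I interferons bind a receptor that signals through the kinases JAK1 and TYK2 to a complex that includes STAT2 and IRF9 and binds a DNA element called the interferon-stimulated response element (ISRE). Interferon gamma acts on another element, the gamma-activated site (GAS). In microglia, the resident macrophages of the brain, bacterial lipopolysaccharide (LPS) is known to induce interferon beta through TLR4 and TICAM1, and the interferon then induces antiviral effectors, nucleic acid sensors and regulators of its own signalling.

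Open DNA was mapped with ATAC-seq, whose transposase cuts and tags accessible sites, in microglia sorted from the brains of male C57BL/6J mice as CD11b-high, CD45-intermediate, Ly6C-negative cells. Every mouse had an injection at 10 weeks of age and another 5 weeks later, and cells were taken 3 hours after the last injection, at 15 weeks. Between the injections, from 1 week after the first, mice had BLZ945, an inhibitor of the receptor CSF1R that depletes microglia and is followed by repopulation, at 169 mg/kg per day for 5 days, or its vehicle. LPS was given into the peritoneum at 1 mg/kg, and PBS was its control. Groups are named by first injection, B where BLZ945 was given, and last injection: PP (PBS, vehicle, PBS), PL (PBS, vehicle, LPS), LL (LPS, vehicle, LPS), PBP (PBS, BLZ945, PBS), PBL (PBS, BLZ945, LPS) and LBL (LPS, BLZ945, LPS). PBL had 3 libraries and each other group 2. Each library held 80000 cells pooled from 2 animals, so the spread between libraries is that between pools. The pools PBL 3_4 and PBL 4_5 share an animal number in their names, and they were treated as separate.

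Counts in peaks per library ran from 927840 and 990266 in the PP pair, the shallowest, to 2772688. Of the microglia markers listed, 11 of 12 had peaks, and none of 5 astrocyte genes had one. The summed microglia level was 1636 and 1688 CPM (counts scaled to a common library size) in PP, 1920 and 2081 in PBP, 1522 and 1642 in PL, 1548 to 1552 in PBL, 1736 and 1838 in LL, and 1732 and 1864 in LBL, so that PBL and LBL lay below PBP and LL above PP. Summed monocyte markers (3 of 6 with peaks, Ly6c2 without) were 127 and 131 CPM in PP, 128 and 153 in PBP and 143 to 196 in the LPS groups. Border macrophage markers (6 of 8) ran from 202 to 257 CPM in PP, 203 to 264 in PBP and 232 to 325 in the LPS groups, and endothelial markers (4 of 5) from 174 to 211 CPM in PP and PBP and 215 to 304 in the LPS groups. Lymphocyte markers (2 of 9, Cd3e without a peak) ran from 25.2 to 29.8 CPM in PP and PBP and from 25.7 to 43.5 in the LPS groups. Neuron markers (2 of 5) ran from 44.4 to 62.7 CPM in PP and PBP and from 30.7 to 41.3 in the LPS groups. Oligodendrocyte markers (4 of 7) ran from 329 to 379 CPM in PP and PBP and from 320 to 403 in the LPS groups. These sums lay above those of the border macrophage and endothelial markers. Neutrophil markers (3 of 9, S100a8 without a peak) ran from 50.2 to 73.6 CPM over the libraries. The part of these shifts in the results was not tested. The sorter was an Astrios for PP, PBP and PL, and an XDP for PBL, LBL and LL, and each group had its own isolation day except PL, whose library 1_2 shared a day with PBP and 3_4 with PP. In the comparisons of PBL with PBP, of LL with PP or PL, of LBL with PBP and of PBL with PL, sorter and day cannot be told apart from treatment. LBL shared a sorter with PBL and LL but not the day, so that day and treatment cannot be told apart there either. The differences between the arms combine such comparisons and share this limit. PBP and PP also differed in day. A fit with day as a term is given for that comparison among the alternatives, but its day effect rests on 1 PL library per day. The LBL libraries agree within sampling noise (chi-square per degree of freedom 0.978, p = 0.999) and those of PP differed little more (1.01, p = 0.0716). Either pair may be 1 library deposited as 2, which these data do not settle, so results were also computed with each counted as 1 sample, and p-values from the pair as 2 samples may be too small. By contrast, the PL pair differed most (1.84), and PL 3_4 had the lowest share of counts at promoters of all libraries, 57.7% against 59.8% to 64.1%.

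The promoter windows of the genes whose promoters had the smallest p-values in the comparisons of LPS with PBS are shown first. Matches to the core sequence of the ISRE are marked in them. Ifi204 had no entry in the RefSeq table and is named only. Each window runs from 250 bases before to 50 after a RefSeq start (GRCm38.p6), 5′ to 3′ on the gene's strand. Capitals mark every match to the ISRE core GAAANNGAAA or its reverse complement TTTCNNTTTC.
Stat2, chr10:128270248-128270547, plus strand: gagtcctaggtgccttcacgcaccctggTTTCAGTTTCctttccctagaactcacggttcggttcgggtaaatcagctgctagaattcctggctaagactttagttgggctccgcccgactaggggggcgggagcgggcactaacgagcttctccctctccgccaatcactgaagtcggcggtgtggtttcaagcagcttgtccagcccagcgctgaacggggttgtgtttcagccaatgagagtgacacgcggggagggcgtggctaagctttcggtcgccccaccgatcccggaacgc
Trim30a, chr7:104465144-104465443, minus strand: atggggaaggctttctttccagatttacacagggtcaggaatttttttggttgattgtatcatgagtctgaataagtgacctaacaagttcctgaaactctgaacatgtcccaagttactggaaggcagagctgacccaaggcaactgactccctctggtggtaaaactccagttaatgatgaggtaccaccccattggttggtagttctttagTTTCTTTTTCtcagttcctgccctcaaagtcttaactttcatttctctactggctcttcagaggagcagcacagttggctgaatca
Trim30a, other start, chr7:104446076-104446375, minus strand: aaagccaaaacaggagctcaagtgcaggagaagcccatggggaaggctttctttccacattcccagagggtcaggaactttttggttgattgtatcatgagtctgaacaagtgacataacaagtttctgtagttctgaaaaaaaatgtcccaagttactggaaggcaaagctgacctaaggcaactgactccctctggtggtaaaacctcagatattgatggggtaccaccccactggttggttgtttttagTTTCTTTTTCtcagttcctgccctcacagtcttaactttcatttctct
Gbp5, chr3:142496684-142496983, plus strand: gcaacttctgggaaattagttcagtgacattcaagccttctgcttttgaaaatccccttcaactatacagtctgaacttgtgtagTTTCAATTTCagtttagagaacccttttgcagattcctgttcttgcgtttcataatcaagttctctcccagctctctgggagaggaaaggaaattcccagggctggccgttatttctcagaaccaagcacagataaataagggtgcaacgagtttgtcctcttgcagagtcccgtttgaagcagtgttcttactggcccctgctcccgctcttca
Gbp2, chr3:142620413-142620712, plus strand: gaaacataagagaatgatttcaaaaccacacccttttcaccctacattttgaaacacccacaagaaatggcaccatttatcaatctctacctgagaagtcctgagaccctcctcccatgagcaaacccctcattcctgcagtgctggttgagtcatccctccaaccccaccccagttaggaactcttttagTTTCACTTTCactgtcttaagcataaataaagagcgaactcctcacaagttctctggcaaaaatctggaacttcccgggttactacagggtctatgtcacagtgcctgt
Ifih1, chr2:62646206-62646505, minus strand: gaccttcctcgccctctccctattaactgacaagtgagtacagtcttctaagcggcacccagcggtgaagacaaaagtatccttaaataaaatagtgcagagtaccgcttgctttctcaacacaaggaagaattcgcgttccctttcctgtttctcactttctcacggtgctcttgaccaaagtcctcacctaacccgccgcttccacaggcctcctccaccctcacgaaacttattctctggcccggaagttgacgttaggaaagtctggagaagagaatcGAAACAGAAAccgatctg
The match began at position -222 from the start in Stat2, -36 and 2 in the windows of Trim30a, -165 in Gbp5, -59 in Gbp2 and 32 in Ifih1. Each of these windows overlapped a peak.

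A pair of IFIT promoters is shown beside them because each holds 2 matches to the ISRE core. The Ifit3 promoter did not pass the test in any comparison, and the Ifit1 promoter had no peak and was not tested.
Ifit3, chr19:34583279-34583578, plus strand: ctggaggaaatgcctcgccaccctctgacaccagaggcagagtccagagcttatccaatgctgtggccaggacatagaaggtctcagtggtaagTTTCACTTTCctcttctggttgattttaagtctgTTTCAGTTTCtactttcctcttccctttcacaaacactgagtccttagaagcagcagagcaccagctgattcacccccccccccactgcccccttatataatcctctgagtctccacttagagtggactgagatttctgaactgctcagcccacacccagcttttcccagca
Ifit1, chr19:34640639-34640938, plus strand: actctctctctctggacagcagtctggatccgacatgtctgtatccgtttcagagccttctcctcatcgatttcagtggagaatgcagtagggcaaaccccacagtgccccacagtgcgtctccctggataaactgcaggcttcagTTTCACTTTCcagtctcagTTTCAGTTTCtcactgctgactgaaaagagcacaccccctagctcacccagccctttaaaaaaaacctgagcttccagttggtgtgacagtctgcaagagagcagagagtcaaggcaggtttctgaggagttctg
Matches began at -156 and -122 in Ifit3 and at -104 and -85 in Ifit1. The Ifit3 window overlapped a peak and the Ifit1 window did not. Over all 32 listed genes with a RefSeq window, 17 (53.1%) held the ISRE core, against 3.99% of 27025 genes in the same table, and 10 (31.3%) held the GAS motif TTCNNNGAA, against 9.55%. The motifs were read on both strands and may overlap, since both can hold GAA, and a match is a description of the letters, not of a bound site. Gbp5, Gbp7, Bst2, Eif2ak2, Ifitm3 and Oas1a held both motifs.

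The loci leaned towards promoters. Of the 94 peaks, 54.3% were promoter peaks by the deposited annotation (within 1000 bp of a start), against 40.6% of all peaks within 50 kb. Both kinds were present at 20 genes, promoter peaks alone at 15, and distal peaks alone at Ifit1, Ifitm3 and Parp14. Distal peaks lay a median of 10936 bp from the start, and the farthest 42894 bp away, at Ifi204. Promoter levels were modest, with a median of 34.2 CPM against 48.8 CPM for all promoters, and 10 of 35 lay above that median. Distal sums had a median of 19.1 CPM against 25.2 CPM for all, with 8 of 23 above. These levels are counts over peaks of differing width and are not per length.

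Peaks were assigned to the nearest start, and 15 of the 94 lay inside another RefSeq gene and not inside their own, at Ifit1, Ifit3, Ifitm3, Oasl1, Rtp4, Samd9l, Trim30a and Usp18. The most affected were Ifit1, both of whose peaks lay in Ifit1bl1, Rtp4, 4 of whose 5 peaks lay in Masp1, and Ifitm3, 3 of whose 5 peaks lay in Gm33504. At Trim30a, 2 of 4 peaks lay in Trim30c, and the larger of these held the Trim30c start. The Ifi204, Gbp, Ifit, Mx and Trim30 families have near-identical copies, and how reads that map to several places were counted was not given in the sources used here, so values for these genes are uncertain in that respect. In bulk data, fewer cells with an open site and less opening per cell cannot be told apart.

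The main contrast was LPS against PBS, at loci (all peaks of a gene summed), promoters and distal sums, tested with edgeR's quasi-likelihood test over all loci or elements and called at an adjusted p under 0.05. After a single LPS injection in vehicle-treated mice (PL against PP), 7 of the 38 loci rose and none fell. They were Trim30a, a TRIM-family regulator of Toll-like receptor signalling, the sensors Ifih1 (MDA5) and Ifi204, the transcription factor Stat2, the GTPases Gbp2 and Mx2, and Ifitm3, a membrane protein that restricts viral entry. That is 18.4% of the loci, against 6.54% of all tested loci that rose and 4.07% that fell. At promoters 6 of 35 rose (17.1%, against 3.02% of all promoters), at distal sums 3 of 23 (13.0% against 9.65%) and at single peaks 6 of 92 (6.52% against 4.77%). The median log2 difference was 0.20 over the loci and -0.00 over all, and 0.23 over the promoters and -0.06 over all. The distal sums had a median of 0.00, below that of all distal sums (0.09).

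The share of all loci called is given for the main fit only. The count for PL against PP rested on few libraries. It was 2 loci without PP 1_2, 4 without PP 3_4 and 4 without PL 3_4, and with DESeq2 in place of edgeR it was 4. With the PP pair counted as 1 sample it was 3, Trim30a, Ifih1 and Ifi204. Trim30a and Ifih1 were called under each of these settings. Within the day that PL 3_4 shared with PP, leaving out PL 1_2, PL 3_4 stood alone for its group. There the log2 differences of the 7 loci ran from 0.47 at Ifitm3 to 1.25 at Ifi204, and Lgals3bp stood at -0.66.

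In repopulated mice, a single LPS injection (PBL against PBP) raised 3 of 38 loci, Trim30a, Gbp2 and Gbp5. This share of 7.89% compares with 5.15% of all loci that rose and 2.32% that fell, and none of the 38 fell. Promoters of Gbp5, Rtp4, Ifi204 and Gbp2 rose, 4 of 35 (11.4% against 2.34%), and of the distal sums only that of Trim30a rose, 1 of 23 (4.35% against 8.57%). Of 92 single peaks, 8 rose (8.7% against 6.74%) and 3 fell (3.26% against 3.23%). The median log2 difference was 0.06 over the loci, against 0.00 over all. Of the loci, Trim30a alone was called without PBP 1_2, without PBL 3_4 or with DESeq2. Among promoters, that of Gbp5 was called without PBL 3_4, and none without PBP 1_2 or with DESeq2.

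After LPS on both occasions without depletion (LL against PP), 5 of 38 loci rose, Trim30a, Ifi204, Ifitm3, Stat2 and Gbp7, and Lgals3bp fell. The shares of 13.2% and 2.63% compare with 5.81% of all loci that rose and 2.92% that fell. Promoters of Ifi204, Gbp7, Stat2 and Trim30a rose, 4 of 35 (11.4% against 2.11%). Among distal sums, those of Trim30a and Ifitm3 rose (8.7% against 8.97%) and those of Lgals3bp and Zbp1 fell (8.7% against 1.69%). Of the single peaks 4 rose (4.35% against 4.13%) and 2 fell (2.17% against 2.0%). The median log2 difference was 0.11 over the loci and -0.01 over all. Counts of loci were 1 without PP 1_2, 3 without PP 3_4 and 3 without LL 3_4, and Trim30a was called in each. With the PP pair counted as 1 sample it was 2, Trim30a and Ifi204. This comparison shares the PP libraries with that of PL against PP.

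After LPS on both occasions with repopulation between (LBL against PBP), Trim30a alone rose, 1 of 38 loci (2.63% against 3.71% of all loci), and none fell, against 0.575% of all. No promoter was called by edgeR, against 1.03% of all promoters that rose, and DESeq2 called none either. In edgeR, 3 of 35 had an unadjusted p under 0.05, against 9.40% of all promoters. The distal sum of Trim30a rose, 1 of 23 (4.35% against 7.05%), and 3 of 92 peaks rose (3.26% against 3.94%), 2 at Trim30a and 1 at Ifitm3. The median log2 difference was 0.04 over the loci and -0.00 over all. Without PBP 3_4 the locus count was 3, with Ifitm3 and Ifi204 added, and with only peaks within 10 kb it was 0. PBP is shared with the comparison of PBL against PBP.

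**Figure D1:**
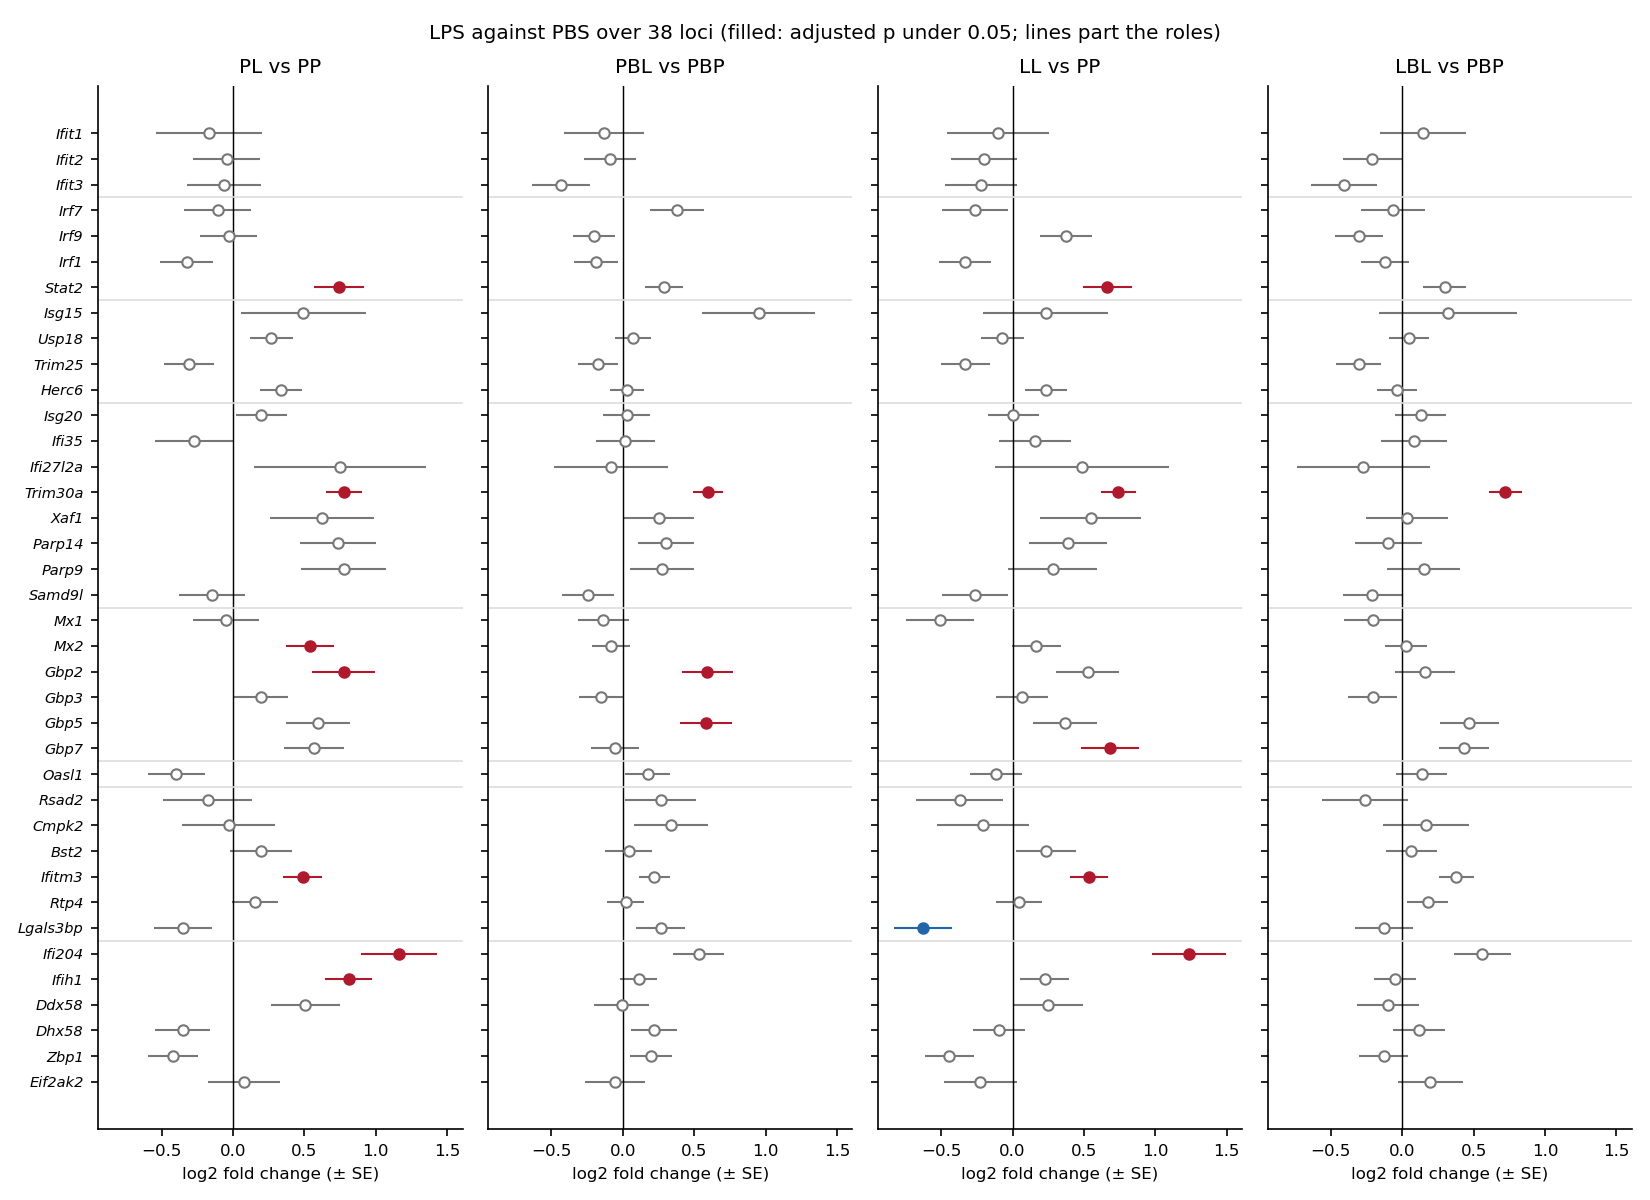
Log2 fold change of each of the 38 gene loci, with its SE, in the 4 comparisons of LPS with PBS, grouped by role on the vertical axis. Filled points passed the test (red higher, blue lower), 7 in PL against PP, 3 in PBL against PBP, 6 in LL against PP and 1 in LBL against PBP, and the IFIT genes lie between -0.43 and 0.15 with none called.

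Summed over the 38 loci, the level was 1782 and 1724 CPM in PP and 1803 and 1911 in PBP. In the LPS groups it was 2011 and 2176 in PL, 1935, 2081 and 2029 in PBL, 1961 and 1935 in LL, and 2034 and 1948 in LBL. The 9 LPS libraries all lay above the 4 PBS libraries, PL highest by mean (2093 CPM) and PP lowest (1753 CPM). The gap was narrow between PBP 3_4 (1911 CPM) and LL 3_4 (1935 CPM). At Trim30a alone these libraries stood at 124 and 199 CPM, farther apart than the sums, so the full separation depended on this gene. Promoter sums lay at 1102 to 1208 CPM in the PBS groups and 1222 to 1389 in the LPS groups. Distal sums overlapped, with 707 CPM in PBP 3_4 and 637 in PBL 1_2.

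Trim30a was the only listed gene called as a locus in each of the 4 comparisons of LPS with PBS. The locus stood at 119 and 125 CPM in PP, 123 and 124 in PBP, 190 and 227 in PL, 168, 179 and 206 in PBL, 209 and 199 in LL, and 207 and 201 in LBL. Every LPS library lay above every PBS library. The log2 difference was 0.78 (SE 0.12, adjusted p = 7.2e-06) for PL against PP, 0.60 (SE 0.10, 2.14e-05) for PBL against PBP, 0.74 (SE 0.12, 1.12e-05) for LL against PP and 0.72 (SE 0.11, 3.76e-06) for LBL against PBP.

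The 4 Trim30a peaks did not contribute alike. The peak with the smallest p in each of these comparisons, chr7:104400541-104401530, was listed as 10737 bp from a Trim30a start and as 5′ UTR, and it held the RefSeq start of Trim30c (chr7:104379117-104400852), a neighbouring paralog. Its level was 25.2 and 26.9 CPM in PP, 21.4 and 19.6 in PBP, 42.7 and 69.2 in PL, 47.8, 55.1 and 63.8 in PBL, 62.9 and 52.3 in LL, and 58.5 and 66.0 in LBL. It rose by 1.11 on the log2 scale in PL against PP (SE 0.23, adjusted p = 0.000469), 1.46 in PBL against PBP (SE 0.20, 8.3e-09), 1.13 in LL against PP (SE 0.23, 0.000266) and 1.60 in LBL against PBP (SE 0.22, 8.91e-09). Of the 29 calls at single listed peaks, 3 held under every alternative tried, and these were this peak in PBL against PBP, LL against PP and LBL against PBP. In PL against PP its call was lost without PL 3_4 and with the PP pair counted as 1 sample.

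The promoter peak of Trim30a itself, chr7:104464903-104465829, stood at 35.8 and 34.9 CPM in PP, 47.6 and 49.8 in PBP, 65.2 and 57.5 in PL, and 47.2 to 57.8 in PBL, LL and LBL. As a single peak it rose in PL against PP only (log2 0.79, SE 0.21, adjusted p = 0.00697). PP was lowest here and PBP lay between, overlapping PBL. The promoter sum was called in LL against PP as well (log2 0.64, SE 0.20, adjusted p = 0.0296). A further peak listed 18414 bp from a Trim30a start, chr7:104445783-104446779, lay over the other Trim30a start shown above and stood at 40.7 to 51.9 CPM in the PBS groups and 50.6 to 70.4 in the LPS groups. It rose in PBL against PBP (log2 0.54, SE 0.16, adjusted p = 0.0166) and in LBL against PBP (log2 0.60, SE 0.18, adjusted p = 0.0277).

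With the peaks inside Trim30c left out, the Trim30a locus still rose in PL against PP (log2 0.63, adjusted p = 0.000918), LL against PP (0.54, 0.00519) and LBL against PBP (0.43, 0.0288) and was not called in PBL against PBP (0.30, 0.0964). With peaks within 10 kb only, which leaves the promoter, the values were 0.85, 0.66, 0.21 and 0.06, and the last pair, those for LBL and PBL against PBP, were not called.

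**Figure D2:**
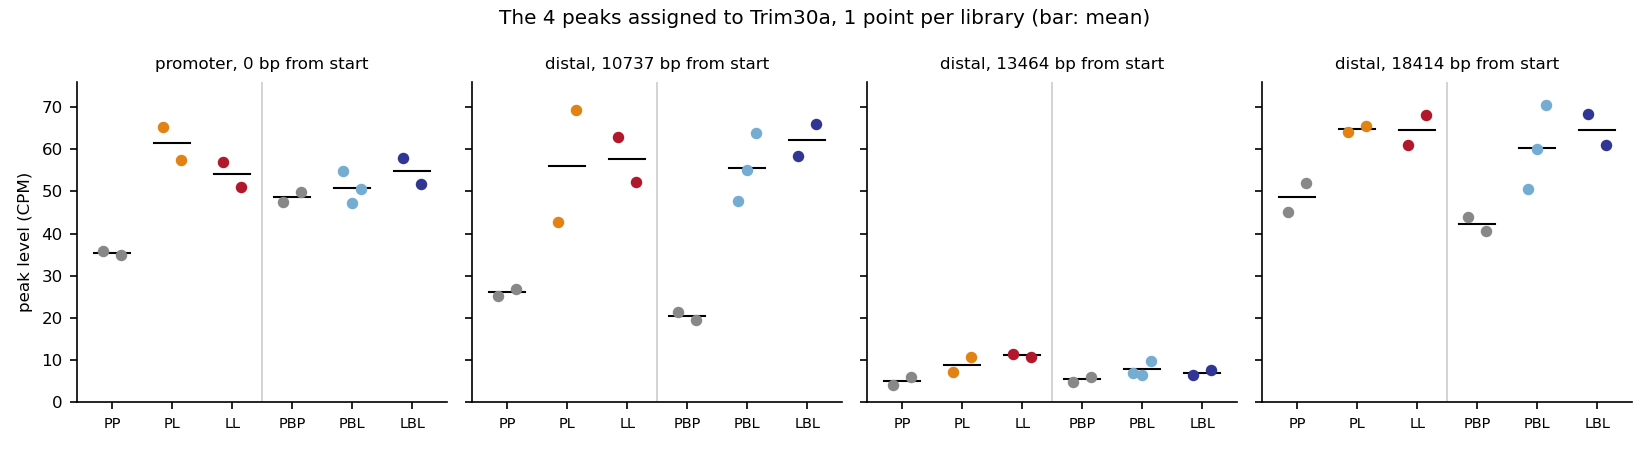
Level in CPM of each of the 4 peaks assigned to Trim30a, with 1 point per library and a bar at the group mean. The peak listed at 10737 bp, which holds the Trim30c start, lies at 19.6 to 26.9 CPM in the PBS groups and at 42.7 to 69.2 CPM in the LPS groups.

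Among the nucleic acid sensors, 2 of 6 loci rose in PL against PP, none in PBL against PBP, 1 in LL against PP and none in LBL against PBP, against 6.54%, 5.15%, 5.81% and 3.71% of all loci that rose. Ifi204, a cytosolic and nuclear DNA sensor of the PYHIN family, stood at 14.5 and 25.2 CPM in PP, 31.7 and 46.8 in PBP, 42.2 and 47.6 in PL, 44.3, 66.0 and 53.8 in PBL, 50.9 and 44.1 in LL, and 56.5 and 57.0 in LBL. PP was lowest and did not overlap any other group, and PBP overlapped PL, PBL and LL. In PP 1_2 the locus held 13 counts, the fewest of any library. The locus rose by 1.16 on the log2 scale in PL against PP (SE 0.27, adjusted p = 0.00184) and by 1.23 in LL against PP (SE 0.26, 0.000619).

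In repopulated mice the Ifi204 locus did not pass (log2 0.53, adjusted p = 0.0515 in PBL against PBP, and 0.56, 0.0956 in LBL against PBP), while its promoter did in PBL against PBP (log2 0.69, SE 0.20, adjusted p = 0.0199), although PBP 3_4 and PBL 1_2 stood level at 33.9 CPM. The promoter peak, chr1:173766801-173767506, was called as a single peak in PL against PP, LL against PP and PBL against PBP, and not in LBL against PBP. Without PP 1_2 the locus was not called in either (log2 0.83, adjusted p = 0.158 for PL, and 0.90, 0.122 for LL).

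Ifih1, which encodes MDA5, a sensor of long double-stranded RNA, stood at 58.2 and 63.1 CPM in PP, 71.0 and 91.9 in PBP, 99.5 and 113 in PL, 78.2, 87.2 and 92.1 in PBL, 69.3 and 72.3 in LL, and 84.8 and 71.7 in LBL. PL was the highest group and overlapped no other. The locus rose in PL against PP (log2 0.81, SE 0.16, adjusted p = 0.000329), and this call held under all 13 alternative settings. Among these, the day term and leaving out PL 1_2 give nearly the same fit. Promoter (log2 0.67, SE 0.20, adjusted p = 0.0169) and distal sum (1.01, SE 0.27, 0.0101) both rose, as did the promoter peak chr2:62645863-62646504 (0.94, SE 0.25, 0.00671), which covers nearly all of the Ifih1 window shown.

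Ifih1 did not pass in the other comparisons of LPS with PBS (log2 0.11, 0.22 and -0.05 for PBL against PBP, LL against PP and LBL against PBP, adjusted p = 0.725, 0.452 and 0.928). A distal Ifih1 peak at -8326 bp from the start, chr2:62654581-62654830, fell in PBL against PBP (log2 -0.83, SE 0.28, adjusted p = 0.0378). It stood at 18.3 and 16.6 CPM in PBP, and the 3 PBL libraries at 8.43, 8.33 and 11.7 all lay below.

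The RNA sensors Ddx58 (RIG-I) and Dhx58 (LGP2), the Z-nucleic acid sensor Zbp1 and the kinase Eif2ak2 (PKR) did not pass as loci in any comparison. The distal sum of Zbp1 fell in LL against PP (log2 -1.29, SE 0.33, adjusted p = 0.00597), from 15.7 and 31.6 CPM in PP to 8.67 and 10.5 in LL, with its peak 32062 bp from the start, chr2:173186274-173186835, at -1.33 (SE 0.33, 0.00447). The PP libraries lay far apart here, and without PP 3_4 the call was lost.

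**Figure D3:**
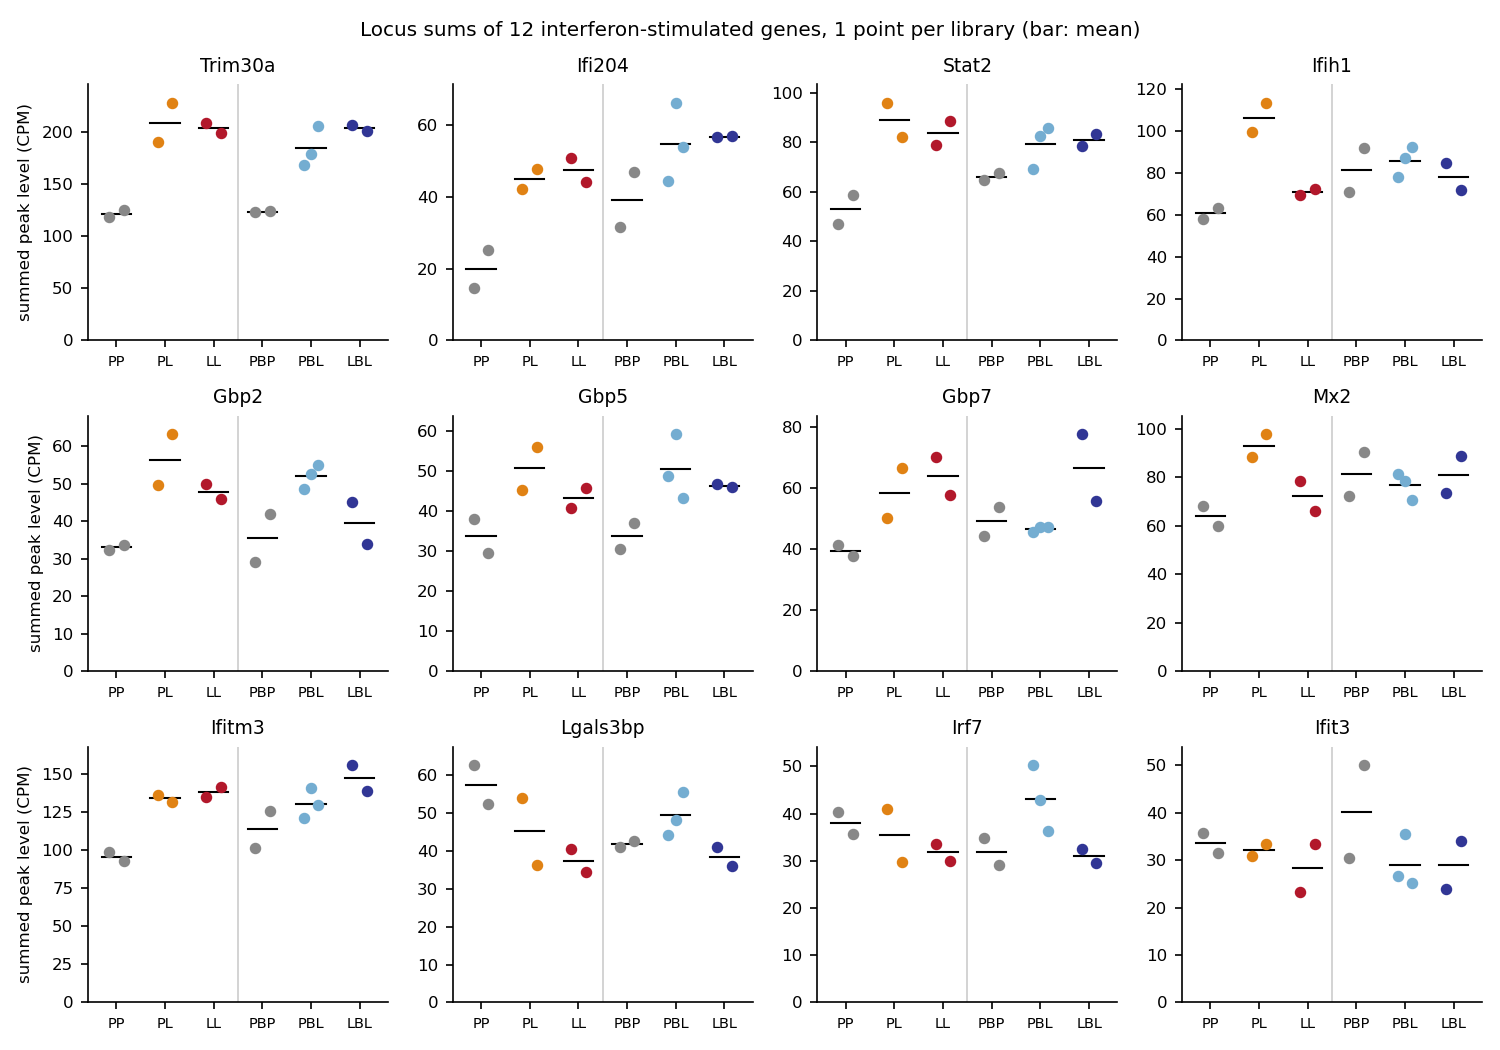
Locus level in CPM of 12 genes, with 1 point per library, a bar at the group mean and the vehicle groups (PP, PL, LL) left of the BLZ945 groups (PBP, PBL, LBL). Trim30a lies at 119 to 125 CPM in the PBS groups and 168 to 227 CPM in the LPS groups, and Ifi204 is lowest in PP at 14.5 and 25.2 CPM.

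Of the 4 transcription factors, Stat2 alone was called as a locus, in PL against PP and in LL against PP. In these comparisons 6.54% and 5.81% of all loci rose. STAT2 works with IRF9 in the complex that reads the ISRE. Its locus, the promoter peak chr10:128270120-128270954 alone, stood at 47.0 and 58.8 CPM in PP, 64.6 and 67.7 in PBP, 95.7 and 82.2 in PL, 69.4, 82.7 and 85.9 in PBL, 79.1 and 88.6 in LL, and 78.4 and 83.2 in LBL. All LPS libraries lay above all PBS libraries, PP lowest.

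The Stat2 locus rose in PL against PP (log2 0.74, SE 0.17, adjusted p = 0.00202) and in LL against PP (0.66, SE 0.17, 0.00609). Against PBP, which stood above PP, the difference was 0.29 for PBL (SE 0.14, adjusted p = 0.218) and 0.30 for LBL (SE 0.15, 0.346), and neither passed. Without PP 1_2 both calls against PP were lost.

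Irf7, the factor that amplifies type I interferon, stood at 40.3 and 35.7 CPM in PP, 34.8 and 29.0 in PBP, 40.9 and 29.8 in PL, 50.2, 42.8 and 36.4 in PBL, 33.6 and 30.0 in LL, and 32.5 and 29.6 in LBL. PBL alone lay above its PBS control in every library (log2 0.38, SE 0.19, adjusted p = 0.26). LL lay below PP (-0.26, adjusted p = 0.529), and PL and LBL overlapped their PBS groups (-0.11, 0.824 and -0.06, 0.945). Irf1, which acts downstream of interferon gamma, stood at 67.1 and 69.4 CPM in PP, and 57.9 and 51.2 in PL (log2 -0.32, SE 0.19, adjusted p = 0.277), with 56.3 and 52.4 in LL (-0.33, SE 0.18, 0.263). The Irf1 values against PBP were -0.19 for PBL (adjusted p = 0.577) and -0.12 for LBL (0.819). Irf9 ran from 45.9 to 72.6 CPM over the libraries with no call.

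The IFIT genes, whose products bind foreign RNA and which are among the most inducible genes of this pathway, showed no called difference at locus, promoter or distal level in any comparison. Ifit3 stood at 35.8 and 31.5 CPM in PP, 30.4 and 50.0 in PBP, 30.9 and 33.4 in PL, 26.6, 35.5 and 25.2 in PBL, 23.3 and 33.5 in LL, and 24.0 and 34.0 in LBL. The groups overlapped throughout. Its log2 differences from PBS were -0.06 (PL, SE 0.26), -0.43 (PBL, SE 0.20), -0.22 (LL, SE 0.25) and -0.41 (LBL, SE 0.23), with adjusted p = 0.911, 0.222, 0.649 and 0.419.

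Ifit1, measured here only through the 2 peaks inside Ifit1bl1, 21100 and 21460 bp from the start, stood at 22.4 and 6.31 CPM in PP and between 11.8 and 17.5 CPM in all other libraries. The PP pair spanned all the rest, and with 6 to 41 counts per library no difference was detectable at this depth. Its log2 differences from PBS lay between -0.17 and 0.15, with SE 0.28 to 0.37 and adjusted p from 0.828 to 0.895. Ifit2 stood between 26.9 and 48.3 CPM, both ends of the range in PP.

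Genes of ISG15 conjugation, a ubiquitin-like tagging system induced by interferon, showed no called difference either. The Isg15 locus was shallow, with 4 to 28 counts per library, and stood at 13.4 and 4.20 CPM in PP, 5.07 and 6.45 in PBP, 10.1 and 14.3 in PL, 10.3, 13.8 and 9.29 in PBL, 11.4 and 9.25 in LL, and 11.3 and 3.83 in LBL. All PBL libraries lay above both PBP libraries (log2 0.95, SE 0.40, adjusted p = 0.146), and PL overlapped PP (0.49, SE 0.44, 0.525). For LL against PP it was 0.23 (SE 0.44, adjusted p = 0.797), and for LBL against PBP 0.32 (SE 0.49, 0.843).

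Usp18, which removes ISG15 and damps the interferon receptor, stood at 98.5 and 77.8 CPM in PP, 78.6 and 88.7 in PBP, 105 and 107 in PL, 76.7, 85.7 and 95.2 in PBL, 83.4 and 83.7 in LL, and 83.4 and 88.2 in LBL. PL was the highest group, and the others overlapped. The log2 difference of PL from PP was 0.27 (SE 0.15, adjusted p = 0.252), with -0.07 for LL (0.824), 0.07 for PBL (0.849) and 0.05 for LBL (0.93). The ligases Trim25 and Herc6 were not called in these comparisons.

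Of the 6 GTPase loci, 2 rose in PL against PP (Gbp2, Mx2), 2 in PBL against PBP (Gbp2, Gbp5), 1 in LL against PP (Gbp7) and none in LBL against PBP, where 6.54%, 5.15%, 5.81% and 3.71% of all loci rose. With DESeq2 none of these 5 calls was made, and each was lost when any of 3 libraries was left out. Gbp2, a guanylate-binding protein that attacks pathogen vacuoles, has promoter peaks alone and stood at 32.4 and 33.6 CPM in PP, 29.1 and 41.9 in PBP, 49.8 and 63.1 in PL, 48.7, 52.7 and 55.0 in PBL, 49.8 and 45.8 in LL, and 45.2 and 34.0 in LBL. PL, PBL and LL lay above both PBS groups, and LBL overlapped PBP. The log2 difference was 0.77 in PL against PP (SE 0.22, adjusted p = 0.0134), 0.59 in PBL against PBP (SE 0.18, 0.0237), 0.53 in LL against PP (SE 0.22, 0.126) and 0.16 in LBL against PBP (SE 0.21, 0.808).

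Gbp5, which takes part in inflammasome activation, stood at 38.0 and 29.4 CPM in PP, 30.4 and 37.1 in PBP, 45.4 and 56.0 in PL, 48.7, 59.1 and 43.4 in PBL, 40.6 and 45.8 in LL, and 46.6 and 46.0 in LBL. Every LPS library lay above every PBS library. The locus rose in PBL against PBP (log2 0.58, SE 0.18, adjusted p = 0.0308), with its promoter sum at 0.98 (SE 0.24, 0.00336), and stood at 0.59 (adjusted p = 0.0748) in PL against PP. The promoter peak over the window shown, chr3:142496625-142497039, was called in both arms, from 4.21 and 5.99 CPM in PP to 11.9 and 18.1 in PL (log2 1.55, SE 0.45, adjusted p = 0.0165) and from 7.32 and 10.6 in PBP to 13.3, 20.8 and 16.9 in PBL (0.98, SE 0.30, 0.0203). These levels were low, and PP was the shallowest pair. Each call was lost under 4 of 10 alternatives. For PL they were either PP library or PL 3_4 left out, and the PP pair as 1 sample. For PBL they were DESeq2, and either PBP library or PBL 3_4 left out.

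Gbp7 stood at 41.4 and 37.8 CPM in PP and 70.4 and 57.7 in LL, a rise of 0.68 on the log2 scale (SE 0.20, adjusted p = 0.0214), with PL at 50.4 and 66.7 (0.57, adjusted p = 0.0695). It stood at 44.4 and 54.0 CPM in PBP, 45.8, 47.3 and 47.2 in PBL and 77.7 and 55.9 in LBL. The highest library belonged to LBL, and PBL lay within the range of PBP.

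Mx2, a dynamin-like antiviral GTPase, stood at 68.2 and 59.9 CPM in PP, 88.2 and 97.7 in PL, 78.5 and 66.1 in LL, 72.2 and 90.3 in PBP, 81.2, 78.3 and 70.8 in PBL, and 73.5 and 88.7 in LBL. PL rose against PP, with a log2 difference of 0.54 (SE 0.17, adjusted p = 0.0239), LL overlapped PP (0.17, 0.594), and PBP lay above PP and overlapped PBL and LBL (-0.08, 0.825 and 0.03, 0.968). Its neighbour Mx1 stood at 42.5 and 33.6 CPM in PP, 35.3 and 38.1 in PL (log2 -0.05, adjusted p = 0.925) and 23.8 and 29.1 in LL (-0.51, SE 0.24, adjusted p = 0.176). Against PBP the Mx1 values were -0.14 for PBL (adjusted p = 0.774) and -0.20 for LBL (0.729). Gbp3 ran from 49.4 to 73.3 CPM with no call.

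Of the oligoadenylate synthetases, which make the activator of RNase L or, as OASL1, limit IRF7 translation, only Oasl1 had peaks, at -933 bp (inside Gm13822) and -6122 bp from its start, with none over the window of 300 bases at the start. It stood at 62.7 and 50.4 CPM in PP, 45.6 and 48.4 in PBP, 39.7 and 45.9 in PL, 48.7, 57.1 and 51.9 in PBL, 50.4 and 53.3 in LL, and 48.7 and 53.7 in LBL. PL lay below PP and overlapped PBP. The log2 differences from PBS were -0.40 (PL, SE 0.20, adjusted p = 0.196), 0.17 (PBL, 0.635), -0.12 (LL, 0.75) and 0.13 (LBL, 0.811).

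Among membrane and lipid effectors, Ifitm3 rose and Lgals3bp fell in vehicle-treated mice. Ifitm3 has distal peaks alone and stood at 98.5 and 92.5 CPM in PP, 101 and 126 in PBP, 136 and 132 in PL, 121, 141 and 129 in PBL, 135 and 141 in LL, and 155 and 139 in LBL. LL, PL and LBL lay above both PBS groups, and PBL 1_2 lay below PBP 3_4. The locus rose in PL against PP (log2 0.49, SE 0.14, adjusted p = 0.0133) and in LL against PP (0.53, SE 0.13, 0.00527), with 0.22 in PBL against PBP (0.26) and 0.38 in LBL against PBP (0.0517).

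The Ifitm3 calls rested on peaks inside the neighbouring Gm33504. Without them the locus stood at 0.27 in PL against PP (adjusted p = 0.532) and 0.07 in LL against PP (0.896), and with only the peak 1474 bp from the start it turned to -0.07 and -0.22. The peak with a call of its own, chr7:140997749-140998221, rose in LBL against PBP, from 13.4 and 20.4 CPM to 37.7 and 32.5 (log2 1.07, SE 0.25, adjusted p = 0.00211), and it lies among those in Gm33504.

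Lgals3bp, a secreted glycoprotein that binds galectins, stood at 62.7 and 52.5 CPM in PP, 54.2 and 36.3 in PL, 40.6 and 34.4 in LL, 41.2 and 42.7 in PBP, 44.3, 48.3 and 55.7 in PBL, and 41.0 and 36.1 in LBL. PP was high, and PBP lay below both PP libraries without LPS. The locus fell by 0.62 on the log2 scale in LL against PP (SE 0.20, adjusted p = 0.0384), with its distal sum lower too (29.1 and 27.4 CPM in PP, 16.3 and 12.3 in LL, adjusted p = 0.0215) and the peak chr11:118379537-118380080, 18071 bp from the start, at -1.04 (SE 0.30, 0.0176). The locus call was lost without any of the 4 libraries in turn.

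Rtp4, a Golgi chaperone induced by interferon, had single peaks called in both directions in PBL against PBP. There 8.7% of the listed peaks rose and 3.26% fell, against 6.74% and 3.23% of all peaks. Its locus stood between 70.5 and 95.3 CPM with no call. Its promoter sum rose in PBL against PBP (log2 0.78, SE 0.25, adjusted p = 0.0314), from 17.8 and 12.9 CPM to 26.5, 27.2 and 27.2. In the same comparison 2 of the peaks inside Masp1 fell, chr16:23505869-23506337 (log2 -1.04, SE 0.29, adjusted p = 0.0076) and chr16:23515835-23516168 (-1.08, SE 0.34, 0.0233), and another, chr16:23492584-23493149, rose (0.87, SE 0.29, 0.0376). In that order these calls were lost under 3 of 10, 5 of 9 and 6 of 10 alternatives, each of them without either PBP library. The call of the promoter sum was lost under 6 of 13, DESeq2 among them.

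Rsad2 (viperin), which makes an antiviral nucleotide, stood at 20.1 and 22.1 CPM in PP, 18.3 and 19.1 in PL, 21.7 and 11.9 in LL, 15.2 and 21.8 in PBP, 22.1, 25.6 and 18.6 in PBL, and 16.2 and 14.2 in LBL. Each LPS group overlapped its PBS group apart from PL, which lay below PP, and the log2 differences from PBS were -0.18 (PL, SE 0.31, adjusted p = 0.774), 0.27 (PBL, 0.642), -0.37 (LL, 0.498) and -0.26 (LBL, 0.776). Its neighbour Cmpk2, a nucleotide kinase, stood between 12.1 and 19.4 CPM, and Bst2 (tetherin), which holds virions at the cell surface, between 32.6 and 56.1 CPM. Neither was called.

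Of the other effectors, only Trim30a was called as a locus. Parp14, an ADP-ribosyltransferase, stood at 29.1 and 18.9 CPM in PP and 41.6 and 38.1 in PL (log2 0.74, SE 0.27, adjusted p = 0.063), and Parp9, its relative, at 13.4 and 16.8 CPM in PP and 25.8 and 26.2 in PL (0.78, SE 0.30, adjusted p = 0.0827). Both lay apart from PP and did not pass. Isg20, an exonuclease, Ifi35, Ifi27l2a (1 to 20 counts per library), Xaf1, a pro-apoptotic factor, and Samd9l showed no call at locus, promoter or distal level.

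**Figure D4:**
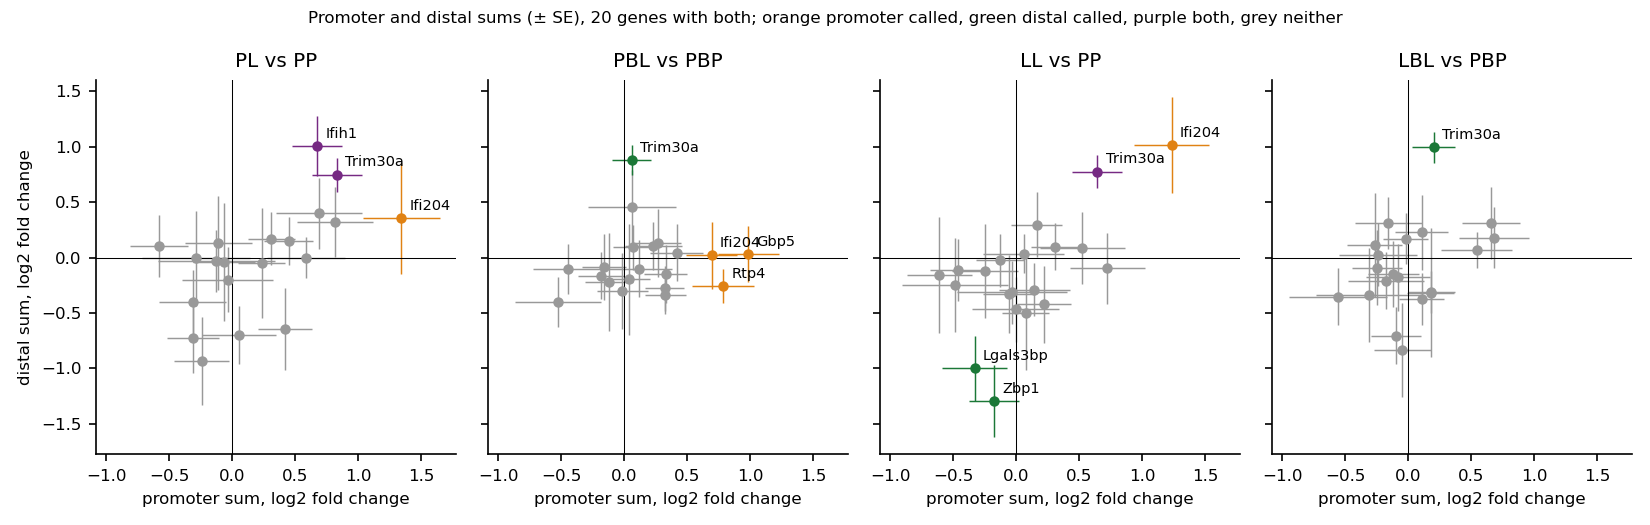
Log2 fold change of the distal sum against that of the promoter sum for the 20 genes with both, in the 4 comparisons of LPS with PBS. Orange marks a called promoter, green a called distal sum, purple both and grey neither. In PL against PP, Trim30a and Ifih1 were called for both kinds.

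The promoter and distal values of 1 gene did not always move together. Trim30a was called for both kinds in PL against PP (promoter log2 0.83, SE 0.20, distal 0.75, SE 0.15) and in LL against PP (0.64 and 0.78), and for the distal sum alone in PBL against PBP (0.88, SE 0.13) and LBL against PBP (0.99, SE 0.14). The distal sum of Trim30a includes the Trim30c start and the peak over the other Trim30a start. At this gene the comparison is therefore not one of a promoter with elements away from any start. The share of the listed genes' counts at promoters ran from 63.0% to 67.0% over the libraries.

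The study's design also asks whether an earlier LPS injection changes the response to a later one. With LL set against PL, no locus, promoter or distal sum of the listed genes was called by edgeR or DESeq2. In edgeR, 6 of 38 loci, 7 of 35 promoters and 2 of 23 distal sums had an unadjusted p under 0.05. Among all features these shares were 6.95%, 5.61% and 8.83%. Of all features, 0.0437% of loci, 0.0184% of promoters and 0.0123% of distal sums were called in either direction, so that few features passed anywhere. The median log2 difference over the 38 loci was -0.14, against 0.00 over all loci. Of the 38 loci 29 lay below 0, while 50.0% of all loci lay above 0.

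Ifih1 came nearest in LL against PL, at -0.59 (SE 0.13, adjusted p = 0.0565), where LL (69.3 and 72.3 CPM) lay below PL (99.5 and 113). Without PL 1_2 it passed (log2 -0.67, adjusted p = 0.00655). Mx2 (-0.37, SE 0.13, adjusted p = 0.484), Usp18 (-0.34, SE 0.13, 0.49) and Mx1 (-0.46, SE 0.21, 0.65) lay lower in LL and Irf9 higher (0.41, SE 0.16, 0.544), without passing.

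In repopulated mice (LBL against PBL), no locus, promoter or distal sum was called by edgeR, against 1.21%, 0.534% and 2.37% of all, and DESeq2 called none. In edgeR, 7 of 38 loci, 5 of 35 promoters and 4 of 23 distal sums had an unadjusted p under 0.05. Among all features these shares were 11.6%, 8.00% and 17.0%. The median over the loci was -0.07, against -0.01 over all. Of the 38 loci 23 lay below 0, while 48.8% of all loci lay above 0. At single peaks 3 of 92 fell (3.26%), against 0.928% of all peaks. A Parp14 intron peak 1858 bp from the start, chr16:35869124-35869524, stood at 14.0, 24.5 and 23.8 CPM in PBL and 10.4 and 8.12 in LBL (log2 -1.24, SE 0.27, adjusted p = 0.00342), having risen in PBL against PBP (1.10, SE 0.28, 0.00357) from 8.54 and 12.1 CPM.

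The promoter peak of Zbp1, chr2:173218396-173219199, stood at 37.9, 43.5 and 38.9 CPM in PBL and 22.7 and 24.9 in LBL (log2 -0.75, SE 0.19, adjusted p = 0.0181), and a Gbp2 peak at -661 bp from the start, chr3:142619722-142619941, at 4.92, 9.25 and 9.53 and at 3.90 and 2.03 CPM (-1.53, SE 0.44, 0.0366). In each of these peaks both LBL libraries lay below all PBL libraries. With the LBL pair counted as 1 sample, or without either LBL library, the calls at the Parp14, Zbp1 and Gbp2 peaks were lost. The isolation day differed between PBL and LBL and cannot be told apart from treatment in these peaks.

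Gbp7 ran the other way in LBL against PBL, at 0.49 (SE 0.15, adjusted p = 0.0979), and Gbp2 (-0.43, SE 0.17, 0.227), Irf7 (-0.44, SE 0.18, 0.284), Lgals3bp (-0.39, SE 0.17, 0.314), Zbp1 (-0.33, SE 0.14, 0.326) and Rsad2 (-0.53, SE 0.25, 0.389) lay lower in LBL without passing. The difference between the arms, LBL against PBL minus LL against PL, was tested itself. No listed locus was called by edgeR, against 0.0% of all loci, and DESeq2 called none. In edgeR, 3 of 38 had an unadjusted p under 0.05 (Mx2, Ifih1 and Irf9), against 5.79% of all loci.

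**Figure D5:**
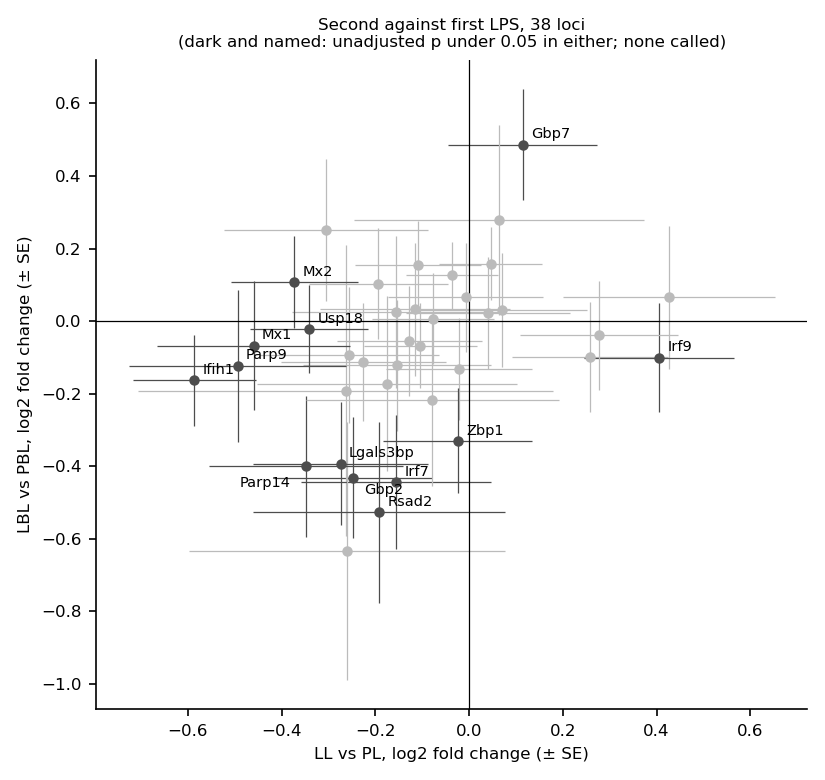
Log2 fold change of LL against PL (horizontal) and of LBL against PBL (vertical) for the 38 loci. Dark, named points had an unadjusted p under 0.05 in either comparison, and none was called after adjustment, Ifih1 lying farthest left at -0.59 and Gbp7 highest at 0.49.

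The last set of comparisons holds the injections fixed and sets repopulated against original microglia. Without LPS (PBP against PP), no locus, promoter or distal sum was called by edgeR, against 0.116%, 0.0645% and 0.086% of all, and DESeq2 called none. In edgeR, 3 of 38 loci, 2 of 35 promoters and 2 of 23 distal sums had an unadjusted p under 0.05. Among all features these shares were 12.3%, 12.2% and 9.84%. Ifi204 differed most (log2 0.94, SE 0.28, adjusted p = 0.128), with both PBP libraries above both PP libraries. Ifih1 (0.41, SE 0.18, adjusted p = 0.322) lay higher and Lgals3bp (-0.46, SE 0.21, 0.361) lower.

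After a single LPS injection (PBL against PL), none was called by edgeR or DESeq2, against 0.342%, 0.0645% and 0.246% of all. In edgeR, 5 of 38 loci, 6 of 35 promoters and 3 of 23 distal sums had an unadjusted p under 0.05. Among all features these shares were 11.8%, 10.1% and 14.1%. Isg20 came nearest at -0.50 (SE 0.14, adjusted p = 0.0946), at 66.8 and 77.4 CPM in PL and 39.8, 48.3 and 59.6 in PBL. Without PL 1_2 it passed at -0.61 (adjusted p = 0.0109), with Herc6 at -0.39 (0.0414). After LPS on both occasions (LBL against LL), none was called by either tool, against 0.0947%, 0.0% and 0.0491% of all. In edgeR, 2 of 38 loci, 1 of 35 promoters and 1 of 23 distal sums had an unadjusted p under 0.05. Among all features these shares were 7.62%, 6.11% and 8.84%.

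The change from PBS to a single LPS injection was also compared between the arms, as PBL against PBP minus PL against PP. No listed locus was called by edgeR, against 0.124% of all, and DESeq2 called none. In edgeR, 8 of 38 had an unadjusted p under 0.05, against 14.1% of all loci. Ifih1 had the smallest p (difference -0.70, SE 0.21, adjusted p = 0.102), followed by Mx2 (-0.62, SE 0.21, 0.161) and Zbp1 (0.62, SE 0.23, 0.186). Over the 38 loci the median was -0.16, against 0.00 over all. Without PL 1_2, which leaves PL 3_4 alone in its group, the differences were -0.79 at Ifih1, -0.71 at Mx2, -0.82 at Gbp7 and 0.92 at Lgals3bp. A negative value is a lower log2 difference from PBS in the repopulated arm. PBL and PBP differed in sorter and day, while PL and PP shared a sorter. Sorter and day therefore cannot be told apart from repopulation in this difference.

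Genes that lie upstream in the pathway were counted in the same way. This list and that of other interferon-induced genes were also chosen with earlier results of these data known. Their counts beside the share of all loci are therefore a description and not an independent test. Of 31 genes of interferon induction and signalling, 29 were tested, and 9 rose and 2 fell in PL against PP, 5 rose in PBL against PBP, 10 rose and 1 fell in LL against PP, and 3 rose in LBL against PBP. Of all loci, 6.54%, 5.15%, 5.81% and 3.71% rose and 4.07%, 2.32%, 2.92% and 0.575% fell in these comparisons, and the list's median log2 differences were 0.18, 0.05, 0.14 and 0.08, against -0.00, 0.00, -0.01 and -0.00 over all loci. Jak1, the kinase that both interferon receptors use, rose in all 4 (log2 0.56, 0.30, 0.57 and 0.41), as did Socs3, an inhibitor of JAK signalling (0.37, 0.61, 0.61 and 0.75). In PL against PP the smallest p-values after Jak1 belonged to Tank (0.70), Ticam1, the adaptor through which TLR4 induces interferon (0.63, SE 0.14, adjusted p = 0.00119), and Tlr4 itself (0.63, SE 0.14, 0.00137).

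In PBL against PBP, Socs3 was followed by Jak2 (0.64), Ikbke (1.13) and Jak1, and Tlr4 stood at -0.06 (adjusted p = 0.85). In LL against PP, Ticam1 (0.64) and Ifngr1 (0.42) came after Socs3 and Jak1, and in LBL against PBP Jak2 (0.55) completed the list. Jak2 also rose in PBL against PL (0.57, SE 0.12, adjusted p = 0.0137), the only member of either list called outside the comparisons of LPS with PBS. Ifnar1, a subunit of the type I interferon receptor, was not called in any comparison.

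Of 78 other interferon-induced genes, 61 were tested, and 11, 12, 5 and 6 rose in PL against PP, PBL against PBP, LL against PP and LBL against PBP, with none lower. The shares of all loci that rose were 6.54%, 5.15%, 5.81% and 3.71%, so that 5 of 61 in LL against PP is near the share of all loci. The list's median log2 differences were 0.16, 0.16, 0.05 and 0.12. In PL against PP the smallest p-values belonged to the chemokines Cxcl11 (1.12, SE 0.21) and Cxcl10 (1.17, SE 0.22), the DNA sensor Aim2 (0.61, SE 0.12) and Slfn2 (0.85, SE 0.17). In PBL against PBP they were Slfn2 (0.85), the chemokine Ccl5 (0.71), Ifi207 (1.01) and Cxcl10 (0.86). In LL against PP they were the RNA sensor Tlr7 (1.03), Cxcl11 (0.96), Slfn2 (0.73) and Aim2 (0.48), and in LBL against PBP Slfn2 (0.90), Ifi207 (1.07), Ly6e (0.51) and Ccl5 (0.63). Slfn2, which takes part in T cell quiescence and the response to interferon, rose in all 4.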

How the data were processed

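Open chromatin was measured by ATAC-seq in 13 libraries of sorted microglia. Per the submitters' processing notes, the authors worked on GRCm38 (mm10) and used ChIPseeker 1.38, HOMER 4.9.1, MACS2 2.1.1, Bowtie2 2.2.6, cutadapt 1.9.1, deepTools 3.3.0, Picard 1.126, SAMtools 1.7 and bedtools 2.26. Their deposited table gives, for every peak, an estimated count in each library (values move by 0.5), the nearest gene and the distance to its start. How the values of 0.5 arose and how reads mapping to several places were counted was not given in the sources used here.

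Counts were rounded and summed over the peaks within 50 kb of a start for each gene (locus), with promoter and distal sums apart. All 13734 loci, all promoter and distal sums together, and 37516 single peaks that passed edgeR's filter (minimum count 10) were each fitted with edgeR 4.0.16 in R 4.3.3 (TMM scaling, robust quasi-likelihood test, 6 group means, two-sided). P-values were adjusted by Benjamini and Hochberg over all features and called under 0.05. SE is the log2 difference divided by the square root of F, and CPM used the TMM library sizes. The code was tested on simulated counts. Depth ran from 927840 to 2772688 counts per library. Counts are given for Ifit1, Isg15 and Ifi27l2a. They were low at other loci too, with a lowest library of 13 at Ifi204 and Cmpk2, 12 at Parp9 and 9 at Xaf1.

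The members and lists were chosen with earlier results of these data known. Every listed gene held by the table is named within its role, with full values for those called at locus, promoter or distal level (at most the 10 smallest p per comparison) and for Ifit1, Ifit3, Irf7, Irf1, Stat2, Isg15, Usp18, Rsad2, Oasl1, Gbp2, Mx1 and Ifih1, and at most 4 genes per pathway list and comparison. Tlr4 in PBL against PBP, Ifnar1, Socs3 in PL against PP and other peaks than the one with the smallest p were added after their values were seen. Promoter sequences were shown for at most 6 genes with the smallest promoter p and at most 4 of the IFIT and OAS families.

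Alternatives were RLE size factors, DESeq2 1.42.0, no filter on low counts, counts not rounded, peaks within 10 kb, promoters within 3 kb, the replicate number as a block, isolation day as a term and each library left out. Counting the PP or LBL pair as 1 sample, single peaks under the alternatives, and leaving out peaks inside another gene were chosen after seeing the data.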

Additional observations from a re-analysis of the deposited data

How the results depend on the processing

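Of 40 calls of the listed genes at locus, promoter or distal level, 5 held under every alternative that gave a value: the Ifih1 locus in PL against PP, the Trim30a locus in PL and LL against PP, and the Trim30a distal sum in PBL and LBL against PBP, which has no value within 10 kb. The other 35 were lost under at least 1, and 4 changed sign. Within 10 kb, where only its peak 1474 bp from the start is left, Ifitm3 stood at -0.0693 (locus) and -0.0792 (distal) in PL against PP and at -0.22 and -0.23 in LL against PP.

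Of the counts of calls, 321 stayed within 1.5 times and 61 did not. Shares of all features called are given for the main fit only, so counts under the alternatives have none beside them. With DESeq2, PL against PP gave 4 loci, 3 promoters and 1 distal sum (7, 6 and 3 with edgeR), PBL against PBP 1 locus and 0 promoters (3 and 4), and LL against PP 1 promoter and 1 distal sum (4 and 4). With isolation day as a term, PL against PP gave 11 loci and PBP against PP 1, Lgals3bp, lower. With the PP pair as 1 sample, PL against PP gave 3 loci, 1 promoter and 1 distal sum, and LL against PP 2, 0 and 1. Within 10 kb, distal sums were 1, 2, 0 and 0 in PL against PP, PBL against PBP, LL against PP and LBL against PBP, and LBL against PBP gave 0 loci. Without peaks inside another gene, distal sums were 1 in PL against PP and 2 in LL against PP, both lower. With promoters within 3 kb, distal sums were 2 in PBL and 2 in LBL against PBP, and without rounding LBL against PBP gave 2 loci. The cause was not tested.

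The replicate number as a block gave 2 promoters in PBL against PBP, 2 loci in LBL against PBP, 1 locus in LL against PL (Ifih1) and 1 in PBL against PL (Isg20). Same-numbered libraries correlated at -0.0207 to 0.210 over 15 pairs of groups, 2 above 0.1, so that they share only a number.

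Leaving out each library in turn gave, for loci, promoters and distal sums, 2 to 11, 0 to 9 and 0 to 3 in PL against PP, 1 to 4, 0 to 4 and 1 to 1 in PBL against PBP, 1 to 4, 0 to 2 and 1 to 3 in LL against PP, and 1 to 3, 0 to 1 and 1 to 2 in LBL against PBP. It gave 0 to 1 loci and distal sums in LL against PL, 0 to 2 loci and 0 to 1 promoters in PBL against PL, 0 to 4 loci in the difference of the response to a single LPS injection, and 0 in the other comparisons. A library left alone in its group was assumed to vary like the other groups. Groups of 2 or 3 libraries and low counts at Isg15, Ifit1 and Ifi27l2a limit what could be detected.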
